A study of Homo sapiens with 4 samples.

Results

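Irradiated cells with a very high RNA content were examined in 2 libraries of U-2 OS cells. The cells were selected on their total gene counts, with spike-in rows left out: the top 25% of the cells of each irradiated library were called high, the next 50% middle and the lowest 25% low. This gave 124 high cells, 62 in each library, among 495 irradiated cells and 1220 cells in the series. They were compared with 123 and 124 middle cells of the same libraries.

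U-2 OS, a long-established line grown from a human bone tumour, keeps wild-type p53. In each of 2 experiments, 1 culture received 4 Gy of ionizing radiation (IR) and 1 was left untreated (UT), and each culture gave 1 library. The series design and the study's methods give 48 h after IR and the treatment protocol gives 24 h. All groups are the same line, so nothing here extends to other cells. Single cells were sorted into wells and their polyadenylated RNA was tagged at the 3′ end by SORT-seq, with a unique molecular identifier (UMI) of 6 bases on each molecule and ERCC spike-in RNA in each well.

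The RNA content of a cell grows with its size and with its DNA content, so cells in G2 hold more RNA than cells in G1. After IR, p53 induces the CDK inhibitor p21, encoded by CDKN1A, and arrested cells can keep growing without dividing. Spike-in RNA is added as an equal amount to each well, so gene counts per ERCC count report RNA content relative to that amount. UMIs can limit this reading at the top, because the counts of abundant transcripts can saturate.

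The median high cell held 37185 gene counts in experiment 1 and 39242 in experiment 2, and the median middle cell held 20181 and 22035. The largest cells reached 70673 and 101583 counts, 3.50 and 4.61 times the median of their library. At the threshold, the lowest high cell had 29205 counts and the highest middle cell 29197 in experiment 1, and 30077 and 30057 in experiment 2. These totals chose the cells and are a description. High cells had 8057 and 8292 genes detected at the median against 6141 and 6438 in middle cells, and after thinning to 8000 UMIs per cell they had 3876 and 3921 against 3728 and 3714.

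ERCC counts differed far less than gene counts between the classes. Their median was 49.5 in high and 44.0 in middle cells of experiment 1, and 268 and 239 in experiment 2, ratios of 1.12 and 1.12. The pooled gene counts per ERCC count were 1.79 and 1.80 times higher in high than in middle cells, with a mean of 1.80 ± 0.00854 (SD, n = 2 libraries). Of the 62 high cells of each library, 61 and 62 lay above the median ratio of the middle cells, and 40 and 45 were also in the top 25% of their library by gene counts per ERCC count. The numerator of this ratio chose the cells, so no test was made. In untreated cells cut in the same way the pooled ratios were 1.42 and 1.36.

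**Figure D1:**
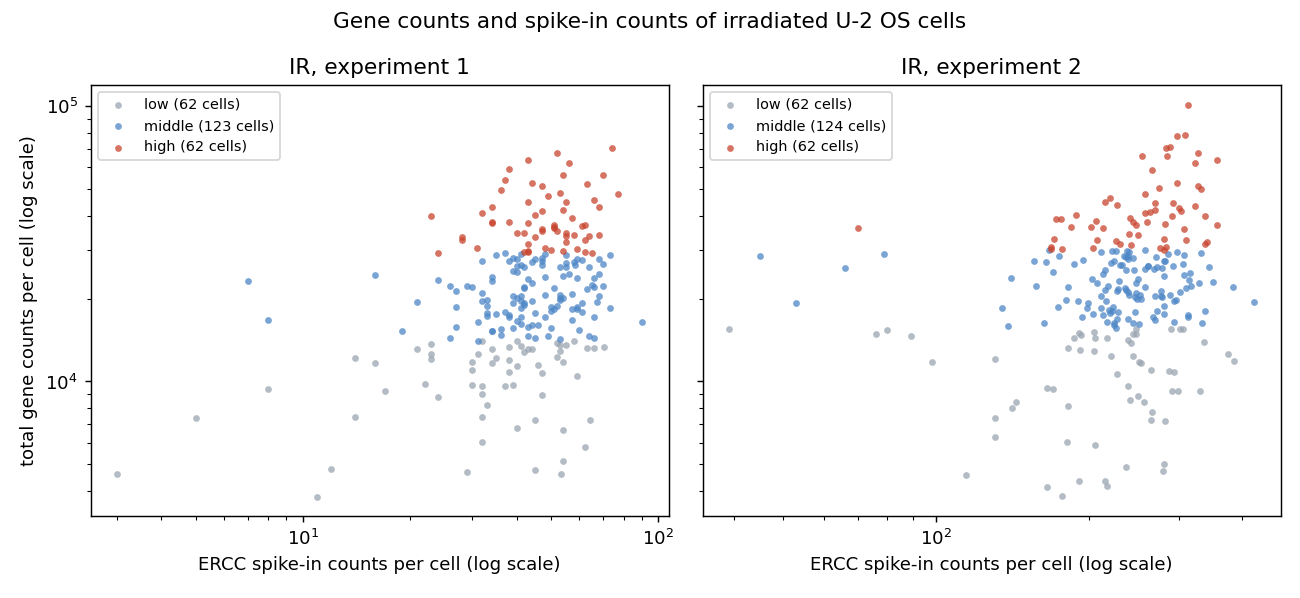
Total gene counts of each irradiated cell against its ERCC spike-in counts, both on log scales, for the 2 experiments; points are cells, coloured by class. The high cells, from 29205 and 30077 counts upward, lie within the range of ERCC counts of the middle cells.

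Marker genes were read beside the label of the line, which they do not identify on their own. The summed level of 20 U-2 OS and osteoblast lineage genes was 13.7 to 19.7 counts per 10000 in the high and middle classes of both libraries, led by S100A6, while the bone transcription factors SP7 and DLX5 were at 0 in each of them. Summed levels of 10 blood, 10 epithelial and 10 endothelial markers lay between 0.104 and 0.538 counts per 10000. HBB and HBA1 were at 0 throughout, as were CLDN5 and EMCN. The epithelial sum was 0.438 and 0.538 in high cells and 0.321 and 0.364 in middle cells, and its part in the results was not tested. The 2 IR libraries shared 173 cell barcodes, of which 10 marked a high cell in both, since barcodes come from 1 set of well primers. Wells that held a pair of cells were not identified.

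Counts of the most abundant transcripts were near saturation. A mean of at least 20 counts per high cell was reached by 263 genes in experiment 1 and 295 in experiment 2, 315 genes in all, among them all 78 ribosomal protein genes measured, GAPDH, ACTB, EEF1A1, PPIA, CDKN1A and HMGCS1. In middle cells 141 genes reached that mean. EEF1A1, a translation elongation factor, had a mean of 94.6 and 83.0 per high cell and 84.9 and 93.2 per middle cell, so its counts hardly differed where the cells' totals differed 1.84-fold and 1.78-fold. Genes with such a mean in any class of irradiated cells (321 genes) are named below as near the ceiling. The label rests on the mean alone and does not show that a limit was reached. Counts of some such genes, CDKN1A among them, were higher in high than in middle cells.

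To compare composition at 1 depth, each cell was thinned to 8000 UMIs and UMIs were summed per library and class. Levels below are counts per 10000 in these thinned cells, and log2 fold changes are of high against middle cells. With edgeR's quasi-likelihood test and the library as a block, 30 of 9800 genes were higher in high cells (0.306% of those tested) and 98 were lower (1.00%), at a Benjamini-Hochberg adjusted p under 0.05, all of them in the same direction in both libraries. Among the lower genes 54 were near the ceiling, against 1 of the higher genes. Scaling by library size alone, in place of TMM, moved the median log2 fold change from -0.00 to 0.09 and gave 100 higher and 64 lower genes.

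The calls rested on little replication. A second random draw of 8000 UMIs called 8 of the 30 higher and 66 of the 98 lower genes again, and a draw of 12000 UMIs 3 and 58. Without the library as a block, 0 higher and 14 lower genes were called, and DESeq2 with the block called 1 and 24. At an unadjusted p under 0.05 edgeR found 963 genes in either direction. The block left 1 residual degree of freedom, so edgeR drew on the spread shared across all genes beside that of each gene. Its p-values do not measure the spread between the cells of a class. Genes are described below with their call in the second draw. That draw thinned the same cells of the same 2 libraries again, so it shows the noise of thinning and not the spread between libraries.

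Genes of mitosis took a larger share of the RNA of high cells. Of 56 G2 and M phase genes tested, 6 were higher and 0 lower, with a median log2 fold change of 0.35 against -0.00 over all genes, and 45 of the 56 lay above their middle level in both libraries (80.4%, against 35.7% of all genes). DESeq2 called 0 of the 56 and gave an adjusted p for 11. TOP2A, the topoisomerase that untangles chromosomes before division, had 2.56 and 2.84 counts per 10000 in high cells and 1.52 and 1.69 in middle cells. Both high values lay above both middle values (log2 fold change 0.66 ± 0.14 SE, adjusted p = 0.00021 by edgeR), and TOP2A was called in the second draw and without either library.

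UBE2C, which hands ubiquitin to the anaphase-promoting complex, had 1.33 and 1.88 counts per 10000 in high against 0.732 and 1.19 in middle cells (log2 fold change 0.65 ± 0.17, adjusted p = 0.011). It was called again in the second draw, and not when either library was left out. MKI67, which coats mitotic chromosomes, had 2.28 and 2.46 against 1.62 and 1.32 (0.60 ± 0.14, adjusted p = 0.0031). The mitotic kinesins KIF14, KIF23 and KIF2C were higher by 0.78, 0.72 and 0.71. MKI67 and the 3 kinesins were not called in the second draw, where KIF23 had adjusted p = 0.084 and MKI67 0.167, and none of the 4 was called without replicate 2. CCNB1, the mitotic cyclin, had 1.96 and 2.26 against 1.37 and 1.95 and did not pass the test (0.26 ± 0.14, adjusted p = 0.58).

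The summed G2 and M phase level differed widely among high cells. Its median was 61.9 and 71.9 counts per 10000 in high cells, 27.5 and 36.9 in middle cells and 16.3 and 23.1 in low cells. The lower quartile of the high cells was 15.3 and 20.3 and their upper quartile 90.9 and 111, so that both cells with few and cells with many mitotic transcripts were among the largest. The median over these genes of the change per ERCC count was 1.23 and 1.43 on the log2 scale, against 0.93 and 0.96 over all genes tested.

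Many promoters of cell cycle genes hold the cell cycle genes homology region, a short element through which the DREAM complex and its mitotic partners act. The letters TTTGAA, searched on both strands of the 250 bases before each annotated start, were present in the promoters of 26 of the 49 G2 and M phase genes with an entry (53.1%), against 16.1% of all 27305 genes with an entry, or 13.3% of all promoters. Of the 6 genes called higher, 5 had an entry and 3 of these held the letters, while KIF14 and KIF2C did not. Stretches of 80 bases are shown for the genes called higher whose promoter held these letters, in RefSeq sequence of GRCh38.p14 on the strand of the gene, with each match or its reverse complement in capitals. A match is a description of the sequence and not of binding.
TOP2A, chr17:40418005-40418084, minus strand: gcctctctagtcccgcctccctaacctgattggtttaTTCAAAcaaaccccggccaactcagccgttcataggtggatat
MKI67, chr10:128126424-128126503, minus strand: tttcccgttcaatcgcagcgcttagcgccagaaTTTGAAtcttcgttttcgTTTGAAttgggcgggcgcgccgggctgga
KIF23, chr15:69414257-69414336, plus strand: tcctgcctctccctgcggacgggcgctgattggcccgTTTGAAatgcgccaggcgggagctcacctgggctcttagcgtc

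Genes of DNA replication moved less. Over the 47 S phase genes tested the median change was 0.16 on the log2 scale, and 1 gene was higher and 1 lower. CDC6, which loads the replicative helicase, had 0.907 and 0.786 counts per 10000 in high against 0.366 and 0.524 in middle cells (0.84 ± 0.24, adjusted p = 0.033), and UNG, which removes uracil from DNA, had 0.222 and 0.222 against 0.437 and 0.554 (-1.24 ± 0.33, adjusted p = 0.019). Neither was called in the second draw. PCNA, the replication clamp, had 1.65 and 1.73 in high and 1.66 and 1.84 in middle cells. None of 33 cyclins, CDKs and their regulators and none of 47 DNA damage response and repair genes passed the test by edgeR, while 5 and 7 of them had an unadjusted p under 0.05. DESeq2 called 0 of either list but gave an adjusted p for only 4 genes of each.

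The gene with the smallest p among the higher genes was KRTAP2-3, which encodes a keratin-associated protein. It had 3.47 and 2.86 counts per 10000 in high cells against 2.08 and 1.06 in middle cells (0.94 ± 0.13, adjusted p = 3.1e-10). UMIs were seen in 61.3% of the high cells of experiment 1 (95% exact binomial interval 48.1 to 73.4%) and 53.2% of those of experiment 2 (40.1 to 66.0%), against 34.96% (26.6 to 44.1%) and 29.8% (21.96 to 38.7%) of middle cells. KRTAP2-3 held in the second draw, at 12000 UMIs and without either library. Its family has near-identical copies, and reads shared between genes were not counted, so its level is uncertain. In low cells it was 2.12 and 1.69.

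THBS1, the matrix glycoprotein thrombospondin 1, had 2.10 and 2.02 counts per 10000 in high cells against 1.04 and 1.37 in middle cells (0.69 ± 0.15, adjusted p = 0.00096). It was called in the second draw and without replicate 2, and not without replicate 1 (adjusted p = 0.468), at 12000 UMIs (0.109) or with classes cut by gene counts per ERCC count (0.33, adjusted p = 0.529). Of 23 cholesterol synthesis genes 2 were higher and 0 lower, with a median of 0.19. HMGCS1, which makes the first committed precursor of the pathway, had 5.65 and 4.50 against 3.17 and 3.82 (0.45 ± 0.10, adjusted p = 0.0016), and DHCR7, its last enzyme, had 2.98 and 2.62 against 2.03 and 1.82 (0.45 ± 0.13, adjusted p = 0.042). Both were called in the second draw and not at 12000 UMIs (adjusted p = 0.136 and 0.103 by edgeR). DESeq2 called 0 of the 23 genes and gave an adjusted p for 7. HMGCS1 was not called without replicate 1 (adjusted p = 0.857), and DHCR7 not without replicate 1 (0.435) or replicate 2 (0.279). SNAPC1, a subunit of the complex that activates small nuclear RNA genes, and CFAP58, a protein of cilia and flagella, were the other genes called higher in both draws (0.62 ± 0.17 and 0.75 ± 0.20). Neither SNAPC1 nor CFAP58 was called at 12000 UMIs (adjusted p = 0.437 and 0.326 by edgeR). CFAP58 was not called without replicate 1 (adjusted p = 0.190) or replicate 2 (0.528).

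**Figure D2:**
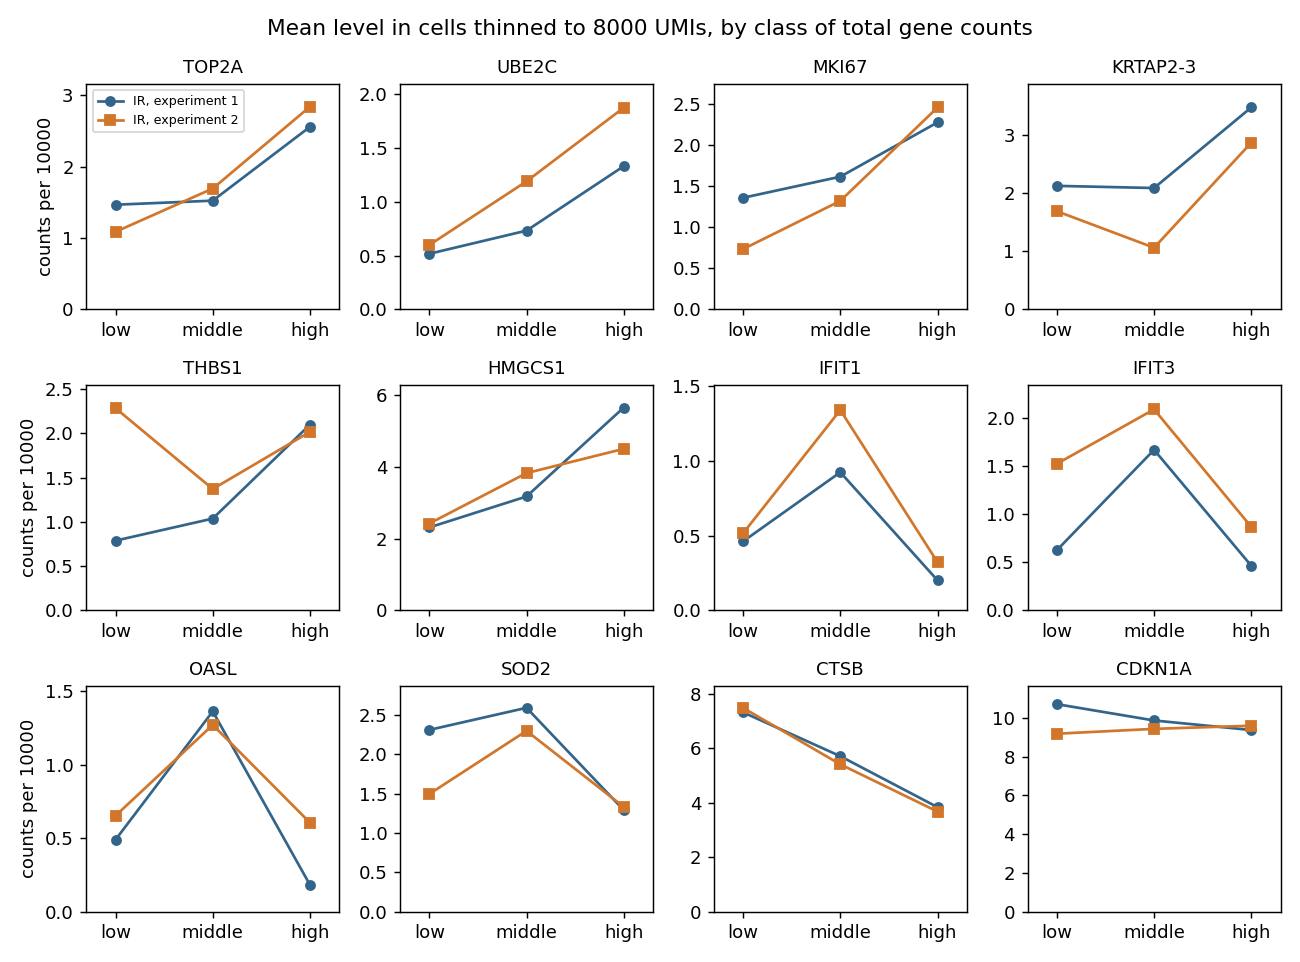
Mean level, in counts per 10000 of cells thinned to 8000 UMIs, of 12 genes in low, middle and high irradiated cells; lines join the classes of 1 experiment. TOP2A, UBE2C and MKI67 are highest in high cells of both experiments, IFIT1, IFIT3 and OASL are highest in middle cells, and CTSB falls from 7.31 and 7.47 in low to 3.83 and 3.67 in high cells.

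Interferon-stimulated genes led the falls below the ceiling. Of 35 such genes tested, 7 were lower and 0 higher (median -0.31), and 19 lay below their middle level in both libraries (54.3%, against 18.2% of all genes). DESeq2 called 0 of the 35 and gave an adjusted p for 5. IFIT1, which binds viral RNA that lacks host caps, had 0.202 and 0.323 counts per 10000 in high cells against 0.925 and 1.34 in middle cells, and its groups did not overlap (-2.19 ± 0.25, adjusted p = 2.9e-15). IFIT2 and IFIT3, its relatives, had log2 fold changes of -2.32 ± 0.28 and -1.59 ± 0.18. OASL, an oligoadenylate synthetase-like protein, had 0.182 and 0.605 against 1.36 and 1.27 (-1.83 ± 0.22, adjusted p = 9.0e-14). These 4 genes were called in the second draw, at 12000 UMIs and without either library.

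RSAD2, the antiviral enzyme viperin, gave 0 and 1 UMIs in the thinned high cells of the 2 experiments and 32 and 37 in the middle cells. The ratio per cell was 0.054 in experiment 2 (95% counting interval 0.0013 to 0.320), and in experiment 1 the interval reached up to 0.242. These intervals take each UMI as independent, yet RSAD2 UMIs came from 4 and 7 middle cells and 0 and 1 high cells. The 3 richest middle cells held 96.9% and 73.0% of the RSAD2 UMIs of their class, so the intervals are too narrow for a difference between cells. The other lower members were IFIH1, a sensor of double-stranded RNA (0 and 3 UMIs in high against 21 and 21 in middle cells), and ISG15, a ubiquitin-like modifier (0.282 and 0.847 counts per 10000 against 0.833 and 0.958, adjusted p = 0.042). ISG15 and RSAD2 were called in the second draw and IFIH1 was not (adjusted p = 0.0998). RSAD2, IFIH1 and ISG15 were chosen after their values were seen.

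These transcripts came from few cells. IFIT1 UMIs were seen in 15.4% and 23.4% of middle cells and 12.9% and 16.1% of high cells, and the 3 richest middle cells held 64.8% and 48.9% of the IFIT1 UMIs of their class. The summed level of the interferon list had a median of 36.2 and 32.5 counts per 10000 in middle cells and 31.2 and 32.5 in high cells. A level of 100 or more was reached by 7 and 10 middle cells (5.69% and 8.06%), by 0 and 2 high cells (0% and 3.23%, with 95% exact intervals up to 5.78% and 11.2%) and by 1 and 3 low cells. Without these cells the mean level was 37.6 and 32.9 in middle and 33.4 and 34.2 in high cells, so that the classes lay close together and in opposite order in the 2 experiments. The level of 100 was chosen after the values were seen. In untreated cells it was reached by 2 high and 0 middle cells of experiment 1 and by 0 and 1 of experiment 2.

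**Figure D3:**
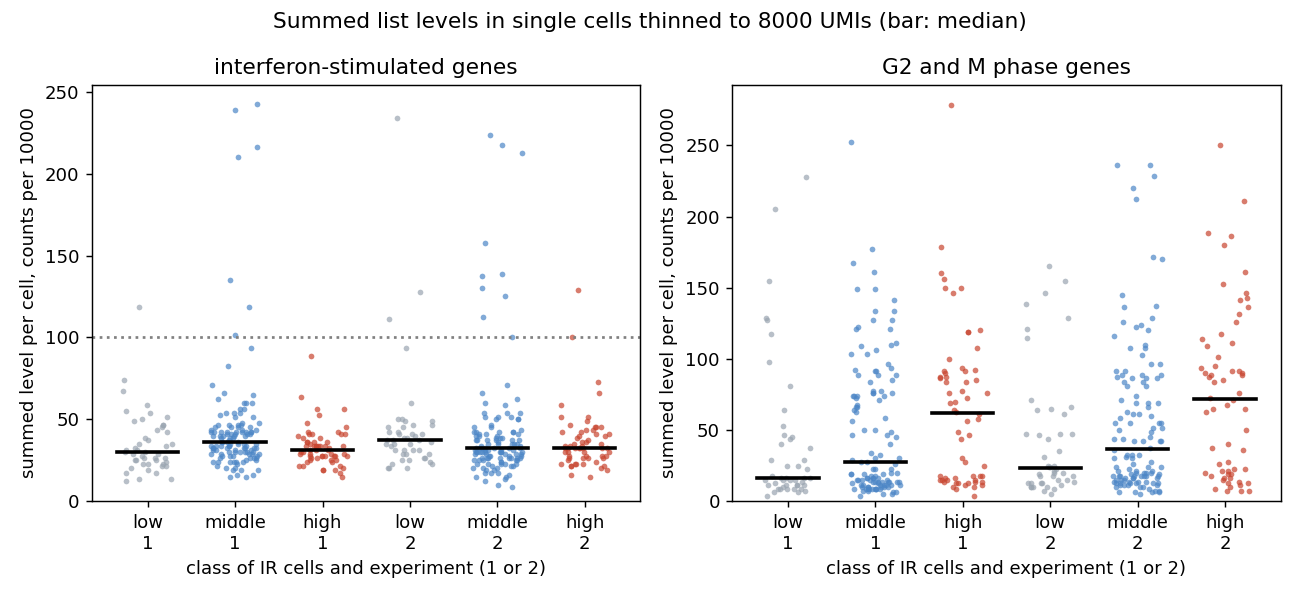
Summed level of the interferon-stimulated and of the G2 and M phase lists in each irradiated cell, in counts per 10000 after thinning to 8000 UMIs, by class and experiment; bars are medians and the dotted line marks 100. Medians of the interferon list are at most 37.5 in all classes, and 17 middle but 2 high cells reach the dotted line.

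When classes were cut by gene counts per ERCC count in place of total counts, IFIT3 and OASL were still called lower (-1.06 and -0.89), and IFIT1 and IFIT2 were not (-0.37 and -0.27, adjusted p = 0.661 and 0.826). Per ERCC count, 9654 of the 9800 genes were higher in high than in middle cells of both libraries and 34 were lower in both. Total gene counts chose the classes, so a rise of most genes on this scale follows from the rule and is a description. Among the 44 genes called lower that were not near the ceiling, 8 were lower per ERCC count in both libraries. These were RSAD2, IFIH1, IFIT1, IFIT2, IFIT3, OASL, BIRC3 and the protocadherin PCDH7, named after its values were seen. The change per ERCC count was -0.78 and -1.05 on the log2 scale for IFIT1. It was -1.15 and -0.19 for OASL and -1.04 and -0.04 for BIRC3, so these 2 were nearly level in experiment 2.

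Interferon-stimulated genes are switched on through an interferon-stimulated response element, a repeat of GAAA. The letters GAAA, any 2 bases and GAAA again, on either strand of the 250 bases before the start, were present in a promoter of each of the 5 called genes with an entry and of 17 of the 28 tested genes with one (60.7%), against 3.71% of all 27305 genes with an entry, or 3.02% of all promoters. Stretches of 80 bases are shown for 3 of the genes that fell, with matches in capitals. IFIT3 and RSAD2 have a pair of entries each, and the stretch comes from 1 of them. The other entry held 2 matches for IFIT3 and 0 for RSAD2.
IFIT1, chr10:89392485-89392564, plus strand: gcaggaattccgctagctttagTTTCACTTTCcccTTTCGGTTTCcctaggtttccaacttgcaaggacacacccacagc
IFIT3, chr10:89327840-89327919, plus strand: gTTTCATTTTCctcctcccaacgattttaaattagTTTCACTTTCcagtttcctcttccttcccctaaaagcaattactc
RSAD2, chr2:6877597-6877676, plus strand: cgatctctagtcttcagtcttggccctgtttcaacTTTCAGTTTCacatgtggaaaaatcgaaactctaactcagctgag

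A few NF-kB targets, lysosomal genes and secretory phenotype genes were called lower in share by edgeR, where 1.00% of all genes tested were called lower. DESeq2 called 0 genes of these lists, and gave an adjusted p for 2 of 11, 15 of 32 and 7 of 27 genes. SOD2, the mitochondrial superoxide dismutase induced by NF-kB, had 1.29 and 1.33 counts per 10000 in high cells against 2.59 and 2.298 in middle cells (-0.99 ± 0.15, adjusted p = 1.0e-08). It was called in the second draw and without either library. Per ERCC count its change was -0.15 and 0.00, so its counts per spike-in were about level where those of most genes were higher. BIRC3, an inhibitor of apoptosis, was lower by a log2 fold change of -1.63 ± 0.38, and was not called in the second draw or without replicate 1 (adjusted p = 0.456). The other 9 of 11 NF-kB targets tested were not called (list median -0.36).

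The lysosomal protease CTSB had 3.83 and 3.67 counts per 10000 in high against 5.70 and 5.40 in middle cells (-0.65 ± 0.10, adjusted p = 2.9e-08), the lowest in high cells of both experiments. GRN, the precursor of lysosomal granulins, and SQSTM1, an autophagy receptor, were lower by -0.53 ± 0.10 and -0.69 ± 0.13. The 3 were called in the second draw, GRN and SQSTM1 not without replicate 1 (adjusted p = 0.136 and 0.282), and 29 of 32 lysosomal genes were not called (median -0.11). Of the 32, 12 lay above their middle level in both libraries (37.5%, against 35.7% of all genes) and 10 below it (31.25%, against 18.2%).

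Of 27 secretory phenotype genes 5 were lower and 1 higher, with a median of -0.16, against 1.00% lower and 0.306% higher of all genes tested. With scaling by library size alone 2 were lower and 1 higher. With classes cut by gene counts per ERCC count 2 of 26 were lower and 0 higher. IGFBP7, a secreted binder of insulin-like growth factors, had 1.57 and 1.31 against 2.80 and 2.10 (-0.85 ± 0.15, adjusted p = 1.4e-06). IGFBP5, the chemokine CCL2, the protease inhibitor TIMP1 and GDF15 were also lower, and the growth factor AREG was higher (0.95 ± 0.28, adjusted p = 0.049). IGFBP7, TIMP1 and GDF15 were called in the second draw and the other members were not. TIMP1, near the ceiling, was not called without replicate 1 (adjusted p = 0.234), nor IGFBP5 without replicate 2 (0.407). Per ERCC count IGFBP7 changed by 0.06 and 0.09 on the log2 scale.

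The p53 response did not set the high cells apart in share. CDKN1A had 9.38 and 9.60 counts per 10000 in high cells against 9.87 and 9.44 in middle cells (-0.11 ± 0.08, adjusted p = 0.74), with a mean of 35.8 and 40.4 counts per high cell and 21.3 and 20.8 per middle cell, near the ceiling. MDM2, which marks p53 for degradation, had 2.24 and 2.74 against 2.41 and 2.71, and UMIs of it were seen in 71.0% and 87.1% of high cells and 75.6% and 70.2% of middle cells, in opposite order in the 2 experiments. The death receptor FAS had 0.867 and 0.605 against 0.732 and 0.665, and GADD45A, a DNA damage-inducible regulator, had 1.90 and 2.42 against 2.80 and 2.38. Neither these genes nor TP53BP1, which encodes 53BP1, passed the test. Without replicate 2 GADD45A was called lower (-0.65, adjusted p = 0.0493), and without replicate 1 its change was -0.07.

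Of 49 p53 targets 3 were lower and 0 higher, with a median of -0.06. GDF15, a secreted stress cytokine, had 1.25 and 1.33 counts per 10000 in high cells against 1.47 and 2.14 in middle cells (-0.57 ± 0.16, adjusted p = 0.029). It was called in the second draw and not without replicate 2 (adjusted p = 0.782). PMAIP1, which encodes NOXA, and TP53INP1, an autophagy and apoptosis factor, were lower by -0.58 ± 0.16 and -0.90 ± 0.25 and were not called in the second draw. With scaling by library size alone none of the 3 was called and 1 other p53 target was higher.

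**Figure D4:**
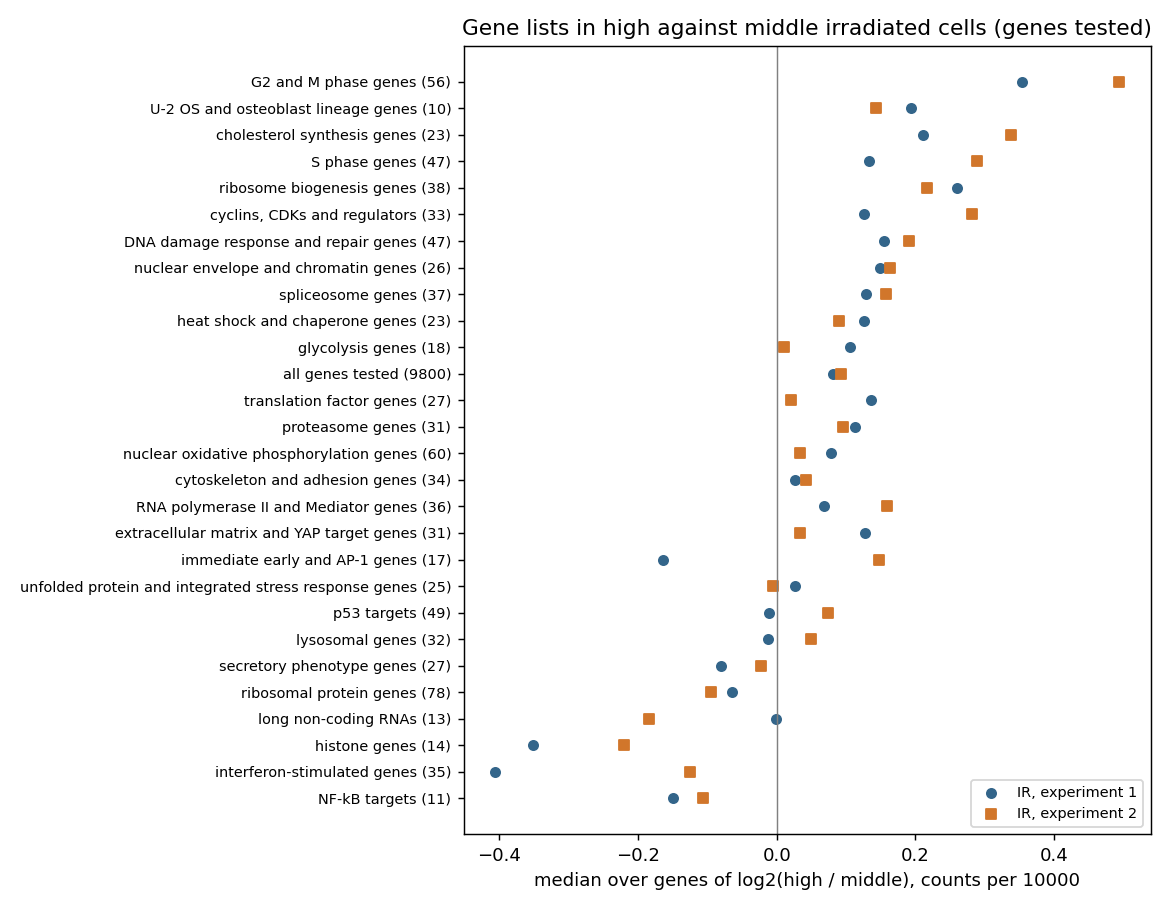
Median over the genes of each list of the log2 ratio of counts per 10000 in high over middle irradiated cells, before TMM scaling; circles and squares are the 2 experiments, and the number of genes tested follows each name. Lists with at least 10 genes tested are shown, with the median of all genes tested as the reference. Among those shown, G2 and M phase genes lie highest in both experiments, and the 13 mitochondrially encoded genes, with a median of -2.38 after scaling, are left out.

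Several lists had medians close to that of all genes. The 60 nuclear genes of oxidative phosphorylation had a median of -0.02, 36 RNA polymerase II and Mediator genes -0.03, 37 spliceosome genes 0.04, 31 proteasome genes -0.01 and 25 unfolded protein and stress response genes -0.06, with 0 called in either direction by edgeR in these 5 lists. Unadjusted p-values under 0.05 were found for 2, 1, 4, 2 and 4 of their genes. DESeq2 called 0, with an adjusted p given for 36, 7, 22, 12 and 6 of them. Ribosome biogenesis genes had a median of 0.13 over 38 genes, with EBNA1BP2 called higher, although not in the second draw. Histone genes had a median of -0.29 over 14 genes. H1F0, a linker histone of resting cells, was called lower in both draws, with 0.867 and 1.33 counts per 10000 in high against 1.36 and 1.92 in middle cells, and was not called without either replicate (adjusted p = 0.207 in both cases). Transcripts of most histone genes lack a poly(A) tail and are poorly captured by this method.

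Messenger RNAs encoded in the mitochondrial genome fell most, and every one of them was near the ceiling in some class. Of 13 genes, 12 were lower in high than in middle cells, also in the second draw, with a median log2 fold change of -2.38. MT-CO3, a cytochrome c oxidase subunit, had 50.9 and 51.0 counts per 10000 in low, 13.5 and 13.6 in middle and 1.59 and 1.55 in high cells (-3.19 ± 0.11). Its mean deposited count per cell also fell, from 66.3 and 64.2 in low to 25.2 and 27.2 in middle and 6.20 and 5.37 in high cells. MT-ND6, the member with the lowest mean per low cell, rose instead from 5.84 and 3.61 to 13.2 and 10.2 and 25.8 and 20.96 counts per cell, and its share did not pass the test (-0.08 ± 0.09). MT-ND4L, which had 31.3 and 21.1, 50.7 and 38.9, and 67.0 and 61.6 counts per cell, also rose per cell. Without the genes near the ceiling in high cells, 6 mitochondrially encoded genes were left, all called lower. They were left because their mean per high cell was under 20, so this call depends on the filter and cannot decide the part of the ceiling. MT-ND5 had 64.0, 82.2 and 65.2 counts per low, middle and high cell of experiment 1, and so was not ordered by depth. How UMIs were merged is not known here, and its part and that of less mitochondrial RNA in these falls cannot be told apart from these counts.

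Other abundant transcripts were also lower in share. GAPDH, PPIA, EEF1A1 and ACTB were lower by -0.96, -1.01, -0.92 and -0.71, and 17 of 78 ribosomal protein genes were lower and 0 higher (median -0.16). The mean of GAPDH, a glycolytic enzyme, was 89.1 and 85.0 counts per high cell and 85.7 and 88.7 per middle cell. NEAT1 and MALAT1, nuclear long non-coding RNAs, were lower by -0.69 and -0.55. All are near the ceiling, where a lower share cannot be told apart from lost UMIs, and many have processed pseudogenes.

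High and middle cells were cut in the same way in the 2 untreated libraries to ask which differences were larger or smaller after IR. The interaction of class and group was called for 24 of 10767 genes (0.223%), 2 positive and 22 negative, and 19 of the 24 were near the ceiling. The irradiated high cells held more counts than the untreated ones, 37185 and 39242 against 23016 and 26488 at the median, so that the ceiling may not act equally in the groups. The G2 and M phase genes had a median of 0.39 in untreated cells, close to their 0.35 in irradiated cells, and the difference for TOP2A was 0.00 (adjusted p = 0.999).

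Of the 5 called genes that were not near the ceiling, THBS1 had the smallest p. It was higher in irradiated high cells, as above, and lower in untreated ones, with 1.42 and 1.58 counts per 10000 in high against 2.02 and 2.34 in middle cells (difference of the log2 fold changes 1.28 ± 0.19, adjusted p = 4.2e-06). All 4 libraries moved in the direction of their group. The difference was called without each library in turn and not with DESeq2 (1.29, adjusted p = 0.0764). CCN3, a matrix-associated regulator of growth, had 1.49 and 1.29 in irradiated high against 2.297 and 2.01 in middle cells, and 0.819 and 0.856 against 0.534 and 0.717 in untreated cells (-1.09 ± 0.23, adjusted p = 0.0076). It was not called without UT replicate 1 (adjusted p = 0.394), and with classes cut by gene counts per ERCC count it was 0.11 (adjusted p = 0.992). H1F0 and the collagen receptor subunit ITGA2 also differed negatively (-0.78 ± 0.19 and -1.14 ± 0.26), and KRT17, a stress keratin, positively (0.61 ± 0.15). None of these 3 was called without genes near the ceiling in any class (adjusted p = 0.141, 0.0674 and 0.207), and H1F0 was not called without any 1 library (0.0738 to 0.362). ITGA2 was not called without IR replicate 2 (0.516) or UT replicate 1 (0.990), and KRT17 was called without IR replicate 1 but not without any other library (0.133 to 0.680). These genes other than THBS1 and H1F0 were chosen after their values were seen. For IFIT1 the difference of -1.79 did not pass the test (adjusted p = 0.83).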

How the data were processed

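The deposited matrices hold expected counts per gene and cell. The authors mapped reads with STARsolo to GRCh38, without intronic reads or reads shared between genes. The submitters' notes name Seurat 5. For UMI merging, strand handling and barcode filtering the settings are not given in the sources used. In the IR libraries 99.9% of the values lie on the correction that turns k UMIs into molecules among 4096 possible sequences, so whole UMI numbers k were recovered for thinning. The deposited values are therefore not raw counts. The matrices list 36601 genes and 92 ERCC rows, which were left out of totals and tests. Total counts were 5736339 and 6186428 in the IR libraries and 5867961 and 6810079 in the UT libraries.

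All deposited barcodes were used and no doublet caller was run. Each cell was thinned to 8000 UMIs without replacement. No middle or high cell fell below this depth, while 16 low cells of each IR library did and were left out of thinned values. Sums per library and class were compared with edgeR 4.0.16 (R 4.3.3; TMM, filterByExpr, robust quasi-likelihood fit) with the library as a block, since high and middle cells come from the same library. The biological coefficient of variation was 0.0521 with and 0.164 without the block. Leaving out a library used a joint fit with the UT libraries, which lend their spread. DESeq2 1.42.0 was an alternative. Intervals cover counting error only. The 2 experiments are described by the study as independent sets of samples.

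Named genes were 10 genes chosen by name, the 12 largest changes in each direction with at least 0.5 counts per 10000 and fewer than 20 per high cell, up to 3 members of each of 31 lists by p, the 10 most abundant genes and up to 5 interaction calls; others are named because their values were seen. The classes, lists and tests were chosen with earlier results of these data known. Promoter sequences come from RefSeq (GRCh38.p14), and 7812 of 9800 tested genes matched by symbol.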

Additional observations from a re-analysis of the deposited data

Results flagged for a closer look

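The difference between irradiated and untreated cells in the change from middle to high cells passed edgeR's test for 15 of the genes named by the rule, and is given here as a difference of log2 fold changes. It was positive for THBS1 (1.28) and negative for the linker histone H1F0 (-0.78), both away from the ceiling.

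The other 13 genes had a mean of at least 20 counts per cell in some class. The difference was -1.47 for MT-CO3, -1.12 for MT-ATP6, -1.07 for MT-ND4, -1.05 for MT-CYB, -1.04 for MT-CO1 and -1.004 for MT-ND2. It was -0.61 for PPIA, -0.54 for GAPDH, -0.49 for EEF1A1, -0.44 for RPL41, -0.43 for RPS2, -0.35 for RPLP1 and -0.32 for ANXA2. Irradiated high cells held more counts than untreated ones, and the step from middle to high totals was larger in irradiated cells. The parts of saturation and of this step in these differences were not tested.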

How the results depend on the processing

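The 30 higher and 98 lower genes became 100 and 64 with library size alone, 18 and 39 without genes near the ceiling in high cells, 18 and 28 without those near it in any class, 5 and 62 at 12000 UMIs, 188 and 239 without thinning, and 1 and 24 with DESeq2, which gave an adjusted p for 7 and 64 of them. Without the replicate block, which the shared library justifies, they were 0 and 14. No filter on low counts gave 17 higher genes, a fit with the low cells 18, and classes by gene counts per ERCC count 62 lower genes. Leaving out 1 library gave 13 to 16 higher and 63 to 78 lower genes. The 2 positive and 22 negative differences between IR and UT became 17 and 62 without thinning, 5 and 14 with classes by ERCC ratio, 1 and 1 without genes near the ceiling in any class and 0 and 10 with DESeq2. The positive count was 4 for the top 10% of cells and 1 in the second draw, and the negative count 7 without genes near the ceiling in high cells. Leaving out 1 library gave 1 to 7 positive (7 without IR replicate 1) and 16 to 29 negative. The ratio per ERCC count of 1.80 was 1.74 as a median over cells, 1.90 without genes near the ceiling, 2.15 for the top 10%, and 1.79 to 1.80 in single libraries. The cause of these moves was not tested, beyond the fewer genes or cells that some settings leave.

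Among named genes 22 log2 fold changes changed sign, all without a call under the alternative. With classes by ERCC ratio these were GADD45A (0.068), PMAIP1 (0.040), BIRC3 (0.13), PPP1R15A (0.11), POLR2F (-0.027), GPI (-0.0061) and EPCAM (-0.082). At 12000 UMIs they were FAS (0.064), BAG3 (-0.17), GTF2F1 (0.012) and EPCAM (-0.23), and without thinning FAS (0.13) and PCNA (0.054). In the second draw they were MDM2 (0.0090), FAS (0.040) and DNAJB4 (0.057), with library size alone FAS (0.073), and for the top 10% NFKB2 (0.053). Without IR replicate 1 they were PPP1R15A (0.18, and -1.04 without replicate 2), PSMB6 (0.042 and -0.90) and CD44 (-0.18 and 0.80), and without IR replicate 2 FAS (0.16). Of the other values of named genes 1357 kept direction and call, 245 lost the call and 23 gained one. Genes under about 0.5 counts per 10000 rest on few UMIs.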
